A study of Mus musculus with 9 samples.

Results

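The genes described here encode splicing factors and hnRNP proteins of the mouse: SR proteins (Srsf), hnRNP proteins (Hnrnp), proteins of the small nuclear ribonucleoproteins (Snrp), subunits of SF3A and SF3B, LSm proteins and PRPF proteins. Members were all genes whose symbol starts with one of those stems, and 71 of the 18193 genes named on the array met that rule. Each gene was read through 1 probe set, the one with the highest mean log2 signal over the 9 arrays among probe sets that name a single gene. A gene entered the tests if that probe set reached the median of its array on at least 2 arrays, which 69 of the 71 members and 11588 genes in all did. Srsf12, with signals of 0.2 to 7.2, and Snrpn, with 0.2 to 2, did not.

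RNA came from thymocytes of C57Bl/6 mice, 1 mouse for each array. Every mouse, controls included, was R26NC/NC. The 2 controls were CD4Cre- and the other mice, called R26-βcat in the labels, were CD4Cre+, where Cre is driven by Cd4 regulatory sequence. Thymocytes carrying both CD4 and CD8 (double positive, DP), sorted at 6 weeks, gave the control group (n = 2) and, from CD4Cre+ mice, the pre-transformed group (n = 3). The tumour group (n = 4) was thymic tumours of CD4Cre+ mice aged 28, 26, 23 and 21 weeks for tumours 1 to 4. The comparisons ask what had changed before transformation and what was different once tumours had formed. Sorted cells were over 98% DP and their RNA (0.1 µg) went through an amplification kit before hybridization, whereas tumours, at least 95% DP but not sorted, were labelled from 2.5 µg by the standard protocol. Labelling, sorting and age therefore cannot be told apart from the tumour state in any value below.

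The spliceosome removes introns from transcripts. Its building blocks are snRNPs, particles of a small nuclear RNA with a ring of Sm proteins (U1, U2, U4 and U5) or of LSm2 to LSm8 (U6) and proteins particular to each. U1 marks the 5′ splice site, U2 with SF3A and SF3B holds the branch site, and the tri-snRNP of U4, U6 and U5 brings in most PRPF proteins. SR proteins bind exons and mostly promote the use of nearby splice sites, while hnRNP proteins coat nascent transcripts and often block sites, and the balance of both sets alternative splicing, in T cells for instance that of Ptprc (CD45).

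Tumour arrays carried higher signals than pre-transformed cells for 12 of the 14 Sm ring, U1, U2 and LSm2 to LSm8 genes among the members and lower signals for 3 hnRNP genes, 3 PRPF genes and Lsm14b, whereas none of the 69 members passed the test between pre-transformed and control cells. Signals are MAS5 intensities on a linear scale, group values are geometric means, changes are log2 differences with their standard error, and a gene was called at an adjusted p under 0.05 over all genes tested with limma. Against pre-transformed cells 35 of 69 members (50.7%) were higher in tumours and 7 (10.1%) lower, where 54.9% of all genes were called, 23.8% higher and 31.1% lower. All tumour arrays were above all pre-transformed arrays for 36 members and below them for 7, as for 24.8% and 32.2% of all genes. The median change of the members was 0.41 and that of all genes was -0.13. Against controls 28 members were higher and 6 lower, where 45.8% of all genes were called, 20.5% higher and 25.3% lower, with medians of 0.37 and -0.08. Both tumour comparisons used the same tumour arrays. The split of the calls moved with the scaling. After quantile normalization 29 members were higher and 18 lower against pre-transformed cells, where 2772 and 3278 of the 11588 genes were. After centring each array on the median of all probe sets 25 members were higher and 11 lower, where 1852 and 4272 of all genes were. The median of all probe sets was a dim signal, 9.9 to 15.2 per array. Centring on it shifts every gene of an array alike. It moved the median of all genes to -0.38 and could not change the distance of the members from it, which was 0.53. After quantile normalization the members stood 0.31 above the median of all genes. With arrays centred on the median of the genes tested, chosen after seeing the data, 40 members were higher and 5 lower. Of all genes 3606 were higher and 2693 lower under that scaling.

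**Figure D1:**
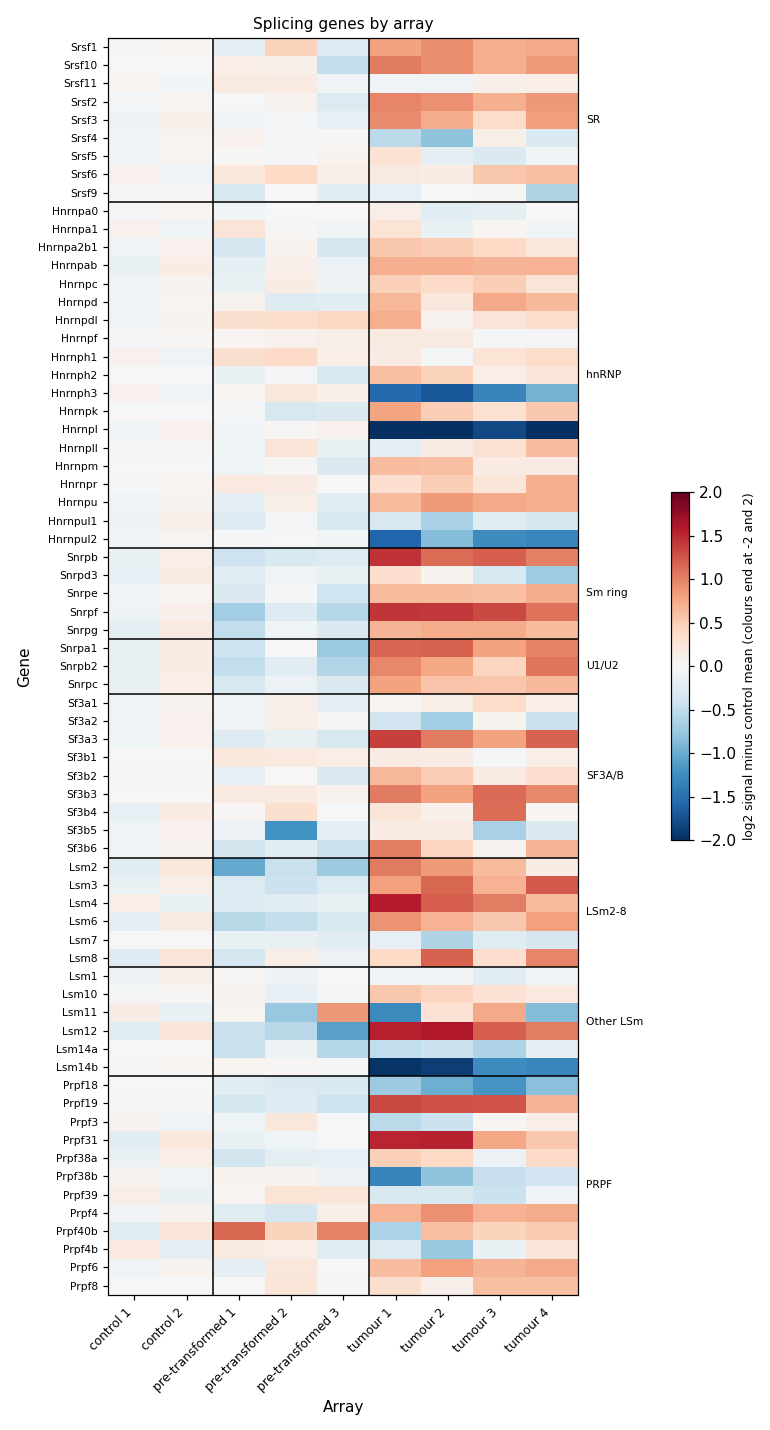
Log2 signal of each splicing gene tested (rows, grouped by class) on each of the 9 arrays (columns), minus the mean of the 2 controls, with colours ending at -2 and 2. Most rows of the Sm ring, U1/U2 and LSm2 to LSm8 blocks are red on all 4 tumour arrays, and Hnrnpl, Hnrnph3, Hnrnpul2 and Lsm14b are blue on all 4.

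The summed signal of 10 myeloid markers spanned 119.2 to 265.7 in sorted cells but 150.9 to 3686.3 in tumours, and that of 7 B cell markers 1802.6 to 3067.2 and 265.5 to 5623.5. The lowest tumour value of both was that of tumour 2. Per sorted array 0 to 3 of the 10 myeloid markers lay above the 65th percentile of the array, per tumour 1 to 9, and none of them was at 0. Of the 7 B cell markers 2 lay above it per sorted array, 1 in tumour 2 and 5 in tumours 1, 3 and 4. The 6 B cell markers tested changed by -2.78 to 4.23 against pre-transformed cells, so their sum mixes both directions. Stroma markers summed to between 162.2 and 236.3 in sorted cells and between 188.6 and 445.6 in tumours, and the 3 erythroid markers on the array to 1.7 to 3 and 12.6 (tumour 2) to 70.9. The 8 DP markers on the array, Cd4, Cd8a and Rag1 among them, were above the 65th percentile everywhere, with summed signals of 25009 to 28500 in sorted cells and 11233.8 to 15830.3 in tumours. By their labels the tumours were at least 95% DP and the sorted cells over 98% DP, so the share of DP cells differed little. The cause of the lower DP sums was not tested. For the other cell types, the number of cells and the RNA per cell cannot be told apart in such bulk RNA. With tumour 2 as the only tumour, the median change against pre-transformed cells was 0.42 for the members and -0.16 for all genes. These changes rest on a single tumour array. For β-actin, the 4 tumours had a mean 3′ to 5′ log2 ratio of 0.81 (SD 0.28) and the 5 sorted arrays one of 0.26 (SD 0.05), with p = 0.00794 by an exact permutation test, two-sided, which is the smallest that 126 splits allow. For Gapdh the means were -0.31 (SD 0.19) and -0.20 (SD 0.12), with an exact permutation p of 0.317. The part of these differences in the changes of the splicing genes was not tested.

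Promoters were read from RefSeq (GRCm38.p6, 250 bases before to 50 after the start) for 62 of the 71 members, and the letters CCGGAAG, bound by ETS factors, were in 19 of them (30.6%) on either strand, against 9.93% of 27025 genes, noncoding ones included. By class, 6 of 7 SF3A and SF3B genes, 2 of 3 U1 and U2 genes, 2 of 5 Sm ring genes and none of the 5 LSm2 to LSm8 genes held them. The E-box CACGTG was in 7 members (11.3%, against 8.09%) and the palindromic NRF1 motif in 1 (1.61%, against 1.07%), each motif being counted on its own also where matches overlap. The 150 bases before the start are shown for 4 genes that were higher in tumours, 3 with the ETS letters and 1 with none of the 3 motifs in this stretch. They are Snrpb2 (chr2:143062919-143063068, plus strand), Sf3a3 (chr4:124714711-124714860, plus strand), Prpf19 (chr19:10895081-10895230, plus strand, the first of its annotated starts) and Snrpf (chr10:93589659-93589808, minus strand), each 5′ to 3′ with the ETS letters or their reverse complement in capitals.
Snrpb2: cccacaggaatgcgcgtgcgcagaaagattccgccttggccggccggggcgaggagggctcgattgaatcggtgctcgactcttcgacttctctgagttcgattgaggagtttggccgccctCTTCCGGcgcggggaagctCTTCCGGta
Sf3a3: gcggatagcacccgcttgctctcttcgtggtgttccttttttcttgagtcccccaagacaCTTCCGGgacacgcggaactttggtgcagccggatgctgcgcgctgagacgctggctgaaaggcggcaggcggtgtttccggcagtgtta
Prpf19: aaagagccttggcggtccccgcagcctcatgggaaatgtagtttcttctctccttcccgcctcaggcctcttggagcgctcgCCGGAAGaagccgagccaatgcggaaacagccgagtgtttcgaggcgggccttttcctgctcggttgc
Snrpf: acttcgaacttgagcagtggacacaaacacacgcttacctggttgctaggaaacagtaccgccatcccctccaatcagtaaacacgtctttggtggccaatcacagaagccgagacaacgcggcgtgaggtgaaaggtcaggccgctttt
The capitals start 28 and 9 bases before the start in Snrpb2, 90 in Sf3a3 and 68 in Prpf19. A match describes the letters of the window only. Among the members called higher in both tumour comparisons 9 of 24 (37.5%) held CCGGAAG, near the 30.6% of all members. Among those called lower in either 0 of 5 did, too few genes to tell the directions apart.

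The Sm ring, which wraps the RNA of U1, U2, U4 and U5, was higher in tumours at 4 of the 5 genes tested and lower at none, in both tumour comparisons. Snrpf (SmF) read 419 and 478 on the control arrays, 277, 372 and 301 on the pre-transformed arrays and 1209.8, 1191, 1114 and 945 in tumours 1 to 4. The lowest tumour was far above the highest sorted array, and the change against pre-transformed cells was 1.82 ± 0.15 (3.53-fold, adjusted p = 1.92e-05). Against controls it was 1.31 ± 0.17 (adjusted p = 0.000363). Snrpb (SmB) read 1031 and 1242 in controls, 848, 914 and 943 in pre-transformed cells and 3078, 2443, 2584 and 2268 in tumours (1.52 ± 0.13, 2.86-fold, adjusted p = 2.51e-05). Snrpg (SmG) read 2546 and 3246, then 2034, 2724 and 2358, and then 4626, 4804, 4811 and 4454 (0.99 ± 0.13, adjusted p = 1.81e-04). Neither gene had a tumour within the sorted range. Snrpe (SmE) was the fourth, with a change of 0.89, and Snrpd3 (SmD3) was not called (-0.01 ± 0.22), its tumours spreading from 907 to 1866. The 4 calls against pre-transformed cells were kept in number under quantile normalization and both centrings, while against controls 2 were left after quantile normalization and 2 after centring on the median of all probe sets.

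Among the members, 3 encode proteins particular to U1 or U2, and all 3 were higher in tumours against either sorted group. Snrnp70 (U1-70K), which is no member, was lower (-1.14 and -1.01). Snrpa1 (the A′ protein of U2) read 515 and 629 in controls, 427, 574 and 342 in pre-transformed cells and 1274, 1294, 999 and 1129 in tumours, a change of 1.42 ± 0.19 against pre-transformed cells (2.67-fold, adjusted p = 1.95e-04). Snrpb2 (the B″ protein of U2) read 813 and 995, then 643, 767 and 599.9, and then 1751, 1531, 1216 and 1889.8 (1.24 ± 0.17, adjusted p = 0.000251), a call that just ended without its shared-sequence probe set (1.27, adjusted p = 0.051). Snrpc (the C protein of U1, which steadies U1 on the 5′ splice site) read 796 and 949, then 699.9, 799 and 713, and then 1520.3, 1295, 1276 and 1357 (0.88 ± 0.12, adjusted p = 2.66e-04). In these 3 genes each tumour was above each sorted array. Snrpc was no longer called when all its probe sets were averaged (0.55), a second and dim probe set being at 11.3 in pre-transformed cells and 13.2 in tumours. After centring on the median of all probe sets, the 3 calls against pre-transformed cells stood and none against controls did. The U1 protein gene Snrpa was not analysed here.

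SF3A and SF3B, the parts of U2 that clamp the branch site, were higher in tumours at 4 of 9 genes against pre-transformed cells and at 2 against controls, and lower at none. Sf3a3 (SF3a60) read 369 and 419 in controls, 329.7, 356 and 315 in pre-transformed cells and 1012, 812, 690 and 886 in tumours (1.34 ± 0.15, 2.53-fold, adjusted p = 8.74e-05). Sf3b3 (SF3b130) read 569 and 558, then 637, 639 and 591, and then 1161, 983, 1241 and 1095 (0.84 ± 0.12, adjusted p = 3.07e-04). Both were apart from the sorted cells on all 4 tumour arrays, and both were called against controls too (1.10 and 0.99). The call of Sf3b3 ended with the mean of its probe sets (0.16), the other being at 365 in pre-transformed cells and 254 in tumours. Sf3b6 (p14, which touches the branch adenosine) read 1026 and 1137 in controls, 836, 921 and 797 in pre-transformed cells and 2199.6, 1461, 1131 and 1736 in tumours, so that tumour 3 lay within the control range (0.90 ± 0.20, adjusted p = 0.00384). Sf3b1, the HEAT-repeat scaffold of SF3B, was not called by its brightest probe set (2475 and 2511 in controls, 2732 to 2895 in pre-transformed cells, 2447 to 2794 in tumours; -0.08 ± 0.10). Sf3a1 was not called either (0.21 ± 0.14), nor were Sf3a2, Sf3b4 and Sf3b5, and Sf3b2 was called at 0.56. After quantile normalization 2 of the 9 were lower against pre-transformed cells, Sf3b1 being 1 of them (-0.50).

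LSm2 to LSm8, the ring on the 3′ end of U6, was higher in tumours at 5 of 6 genes against pre-transformed cells, at 4 against controls and lower at none. Lsm2 read 138 and 184 in controls, 78.1, 116 and 96.4 in pre-transformed cells and 327, 288, 247 and 176 in tumours. Tumour 4 thus lay below control 2, and the gene was called against pre-transformed cells (1.40 ± 0.24, adjusted p = 9.42e-04) but not against controls (0.67 ± 0.28, adjusted p = 0.0716). Lsm3 read 742 and 884, then 667, 598 and 669, and then 1426, 1797, 1311 and 1901 (1.30 ± 0.16, 2.47-fold, adjusted p = 1.11e-04). Lsm4 read 793 and 665, then 609, 619 and 666, and then 2151, 1685, 1474 and 1121 (1.31 ± 0.20, adjusted p = 4.18e-04). Both genes were higher on every tumour array than on any sorted array. Lsm6 changed by 1.18 and Lsm8 by 0.84, while Lsm7 was not called (-0.18 ± 0.15). The calls against controls went to 0 higher and 1 lower after centring on the median of all probe sets and were 4 and 0 after quantile normalization.

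Other members of the LSm family act outside U6. Lsm12, an adaptor with an LSm domain, had the largest rise of the members against pre-transformed cells: it read 63.3 and 88.4 in controls, 55, 50.9 and 35.1 in pre-transformed cells and 219, 228, 171 and 153 in tumours (2.04 ± 0.24, 4.12-fold, adjusted p = 1.05e-04). A second probe set of the gene went from 13.9 to 156 (3.49). Lsm14b, an RNA-binding relative of the P-body protein LSm14A, went the other way: it read 653 and 688 in controls, 696, 678 and 656 in pre-transformed cells and 172, 182, 279 and 271 in tumours (-1.62 ± 0.19, adjusted p = 1.11e-04). The sorted arrays of Lsm14b were within 653 to 696 and no tumour came near them. Lsm10, of the U7 snRNP that matures histone transcripts, was higher at 0.41 ± 0.15 (adjusted p = 0.0396), a call that ended without pre-transformed 1, 2 or 3 (0.47, 0.35 and 0.41), without tumour 1 or 2 (0.35 and 0.38) and without control 1 or 2 (0.41 and 0.41). Lsm1, of the ring that marks transcripts for decapping, read 272.6 to 341 over all 9 arrays and was not called (-0.08 ± 0.13), though it was called with the mean of its probe sets (-0.79). Lsm11 and Lsm14a were not called either.

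**Figure D2:**
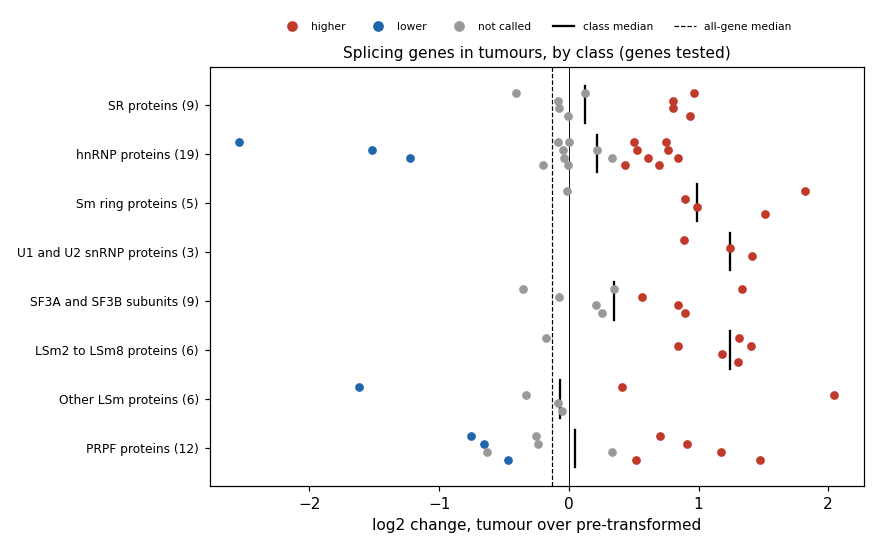
Log2 change in tumours against pre-transformed cells for each splicing gene tested (points), by class, with the class median (bar) and the median of all genes tested (dashed line, -0.13). The medians of the Sm ring (0.99), U1 and U2 (1.24) and LSm2 to LSm8 (1.24) classes lie far to the right of the dashed line, and those of the PRPF (0.05) and other LSm (-0.07) classes lie near 0.

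PRPF proteins, most of which belong to the tri-snRNP or join it during activation, were split: 5 of 12 were higher and 3 lower against pre-transformed cells, 4 higher and 2 lower against controls. Prpf19, the ubiquitin ligase of the complex that bears its name, read 1326 and 1369 in controls, 1050.5, 1132 and 1011 in pre-transformed cells and 3363, 3262, 3231 and 2147 in tumours (1.47 ± 0.16, 2.78-fold, adjusted p = 6.94e-05). Tumour 4 was the lowest of the tumours and still above all sorted arrays. The call did not survive averaging over the probe sets of the gene (0.51), of which 1 of the other 4 was called. Prpf31, which locks U4 and U6 to U5, read 107 and 144, then 112, 117 and 123, and then 357, 359, 212 and 179.7 (1.17 ± 0.27, adjusted p = 0.00424). Prpf4 of the same particle was higher by 0.91, Prpf6, a bridge between U5 and U4/U6, by 0.70 (-0.22, not called, with the mean of its probe sets) and Prpf38a by 0.52. Prpf8, the catalytic scaffold of U5, was not called (0.33 ± 0.15, adjusted p = 0.0817), nor were Prpf3, Prpf4b and Prpf40b, and it was called without tumour 2 (0.43).

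Prpf38b, a relative of the activation factor PRPF38A, was lower in tumours: it read 934 and 842 in controls, 931, 929 and 821 in pre-transformed cells and 353, 506, 641 and 681 in tumours (-0.76 ± 0.21, adjusted p = 0.0129). Each of its 4 probe sets was called lower. Prpf18, which acts at the second step of splicing, read 324 and 320.1, then 274, 263 and 259.9, and then 195, 164, 142 and 180.4 (-0.65 ± 0.15, adjusted p = 0.00511). No tumour of either gene reached the sorted range. Prpf39, a U1-associated protein, changed by -0.47 ± 0.15 (adjusted p = 0.0213), a call lost without pre-transformed 2 (-0.43) or 3 (-0.44) and with the mean of its probe sets (0.031). Centring on the median of the genes tested, chosen after seeing the data, ended the calls of Prpf18 (-0.36) and Prpf39 (-0.18).

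SR proteins were higher in tumours at 4 of 9 genes and lower at none in both comparisons. Srsf1 (SF2/ASF), which binds exonic enhancers, read 2594 and 2738 in controls, 2358, 3653 and 2198 in pre-transformed cells and 4642, 5076, 4406 and 4487 in tumours (0.80 ± 0.17, 1.74-fold, adjusted p = 0.00252). Srsf2 (SC35) read 1772 and 1856, then 1808, 1913 and 1496, and then 3584, 3435, 2963 and 3296.5 (0.94 ± 0.12, adjusted p = 1.68e-04). Srsf10, which represses splicing when dephosphorylated, read 337 and 338, then 369, 364 and 243.5, and then 692, 641, 556 and 612 (0.96 ± 0.17, adjusted p = 0.00108). In all 3 the 4 tumours were above the 5 sorted arrays. Srsf3, the smallest SR protein, changed by 0.81 ± 0.14 in its brightest probe set (adjusted p = 0.00113), but without shared-sequence probe sets it was called lower, at -0.57 against pre-transformed cells and -0.60 against controls. Srsf5 (-0.08 ± 0.14) and Srsf6 (0.13 ± 0.14), which also bind exonic enhancers, were not called, and Srsf4, Srsf9 and Srsf11 were not either. After quantile normalization 3 SR genes were higher and 3 lower against pre-transformed cells, and Srsf1 was no longer called (0.34). With arrays centred on the median of all probe sets 3 were higher and 1 lower.

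Among hnRNP proteins 8 of 19 were higher and 3 lower against pre-transformed cells, and 6 and 3 against controls. That split turned to 3 higher and 9 lower against pre-transformed cells after quantile normalization and to 4 and 4 after centring on the median of all probe sets. The class median stood 0.35 above that of all genes, a distance that the centring cannot change, and 0.0061 above it after quantile normalization. The 3 falls were large. Hnrnpl, which silences the variable exons of Ptprc in T cells, read 1478 and 1675 in controls, 1522, 1606 and 1672 in pre-transformed cells and 224, 253, 451 and 223 in tumours. Its highest tumour was under the lowest sorted array by more than any spread within a group, and the change was -2.54 ± 0.23 (5.82-fold lower, adjusted p = 2.78e-05) against pre-transformed cells and -2.52 ± 0.26 (adjusted p = 1.22e-04) against controls. A second probe set of the gene stayed below the filter, at 1.9 to 12.6. Its paralogue Hnrnpll, an inducer of Ptprc exon skipping in activated T cells, was not called (0.22 ± 0.18).

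Hnrnph3, of the family that binds G-rich elements, read 792 and 710.4 in controls, 783, 880.5 and 807 in pre-transformed cells and 256.4, 231, 299 and 388.5 in tumours (-1.51 ± 0.18, 2.86-fold lower, adjusted p = 1.07e-04). Hnrnpul2, which resembles the scaffold protein hnRNP U, read 711 and 767, then 723, 738 and 709, and then 246, 406, 309.6 and 299.8 (-1.22 ± 0.17, adjusted p = 2.38e-04), and its second probe set was lower too (-0.50). In both, the sorted arrays lay close together and every tumour lay below them.

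Hnrnpu itself, a nuclear scaffold protein, was among the rises, with 2579 and 2864 in controls, 2388, 2954 and 2340.4 in pre-transformed cells and 4220.2, 4926, 4592 and 4518 in tumours (0.84 ± 0.12, adjusted p = 2.50e-04). Hnrnpab read 2801 and 3409, then 2736, 3329 and 2864, and then 5102, 5097, 4938 and 5016 (0.76 ± 0.11, adjusted p = 0.000314). For these genes each tumour was above each sorted array. Hnrnpk, a poly(C)-binding protein, was higher by 0.75, Hnrnpd (AUF1, which controls transcript decay) by 0.69, Hnrnpa2b1 by 0.61 and Hnrnpc, which binds uridine tracts, by 0.44. Hnrnph2 (0.52) and Hnrnpm (0.51) completed the rises. After quantile normalization Hnrnpk, Hnrnpd, Hnrnpa2b1 and Hnrnpc were no longer called (0.31, 0.33, 0.17 and -0.095). Without shared-sequence probe sets Hnrnpk (0.41), Hnrnpd (0.050) and Hnrnpa2b1 (0.011) were not called, and Hnrnpd was not with the mean of its probe sets (0.37). Hnrnpa1, the best known silencer of the family and a gene with many pseudogenes, was not called in its brightest probe set (-0.04 ± 0.13). Hnrnpa0, Hnrnpdl, Hnrnpf, Hnrnph1, Hnrnpr and Hnrnpul1 were not called against pre-transformed cells either, while Hnrnpr was called against controls (0.45, adjusted p = 0.037).

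**Figure D3:**
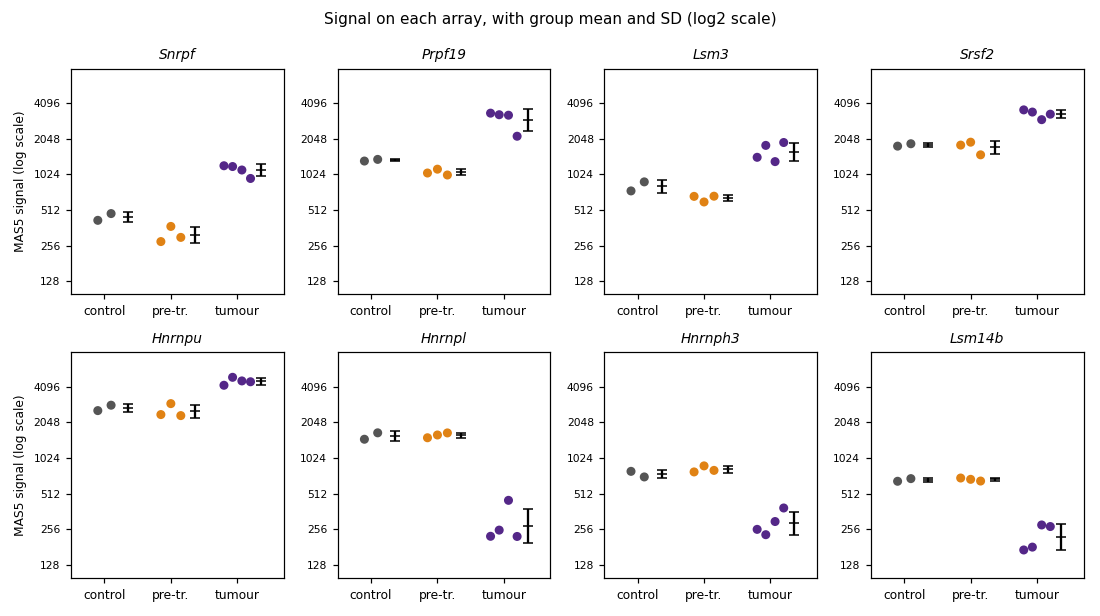
MAS5 signal on a log scale for 8 splicing genes on each array (points) of the control (2), pre-transformed (pre-tr., 3) and tumour (4) groups, with the mean and SD of the log2 signal. In Snrpf, Prpf19, Lsm3, Srsf2 and Hnrnpu every tumour lies above every sorted array, and in Hnrnpl, Hnrnph3 and Lsm14b every tumour lies below.

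Between pre-transformed and control cells limma called none of the 69 members, where 1.73% of all genes were called, 1.16% higher and 0.57% lower. Before adjustment 3 members were higher and 11 lower at p under 0.05, as were 9.74% and 7.9% of all genes, and the median change was -0.08 (0.02 over all genes). All pre-transformed arrays were above both controls for 7 members and below them for 17 (10.1% and 24.6%, against 20.7% and 15.7% of all genes). The 5 members with the smallest p were Hnrnpdl (0.36 ± 0.10), Lsm2 (-0.73 ± 0.21), Snrpf (-0.51 ± 0.15), Prpf19 (-0.34 ± 0.10) and Lsm6 (-0.45 ± 0.14), with adjusted p-values of 0.121 to 0.15. The last 4 had a negative change and were called higher in tumours against pre-transformed cells, a comparison that uses the same pre-transformed arrays. Snrpf was called lower without pre-transformed 2 (-0.63). When every probe set was fitted, 1 of 184 of the members passed the test, a dimmer one of Lsm1 that went from 69.5 in controls to 126.6 in pre-transformed cells (0.87, adjusted p = 0.0465), where 0.598% of all probe sets were called higher and 0.26% lower.

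Against controls the splicing genes were called at 28 higher and 6 lower, and the number moved with single control arrays. Without control 1 the count of higher members fell from 28 to 12, and without control 2 it was 22. The count over all 11588 genes fell as well, from 2372 higher to 1176 without control 1 and to 1487 without control 2. The drop was therefore not particular to the splicing genes. Members named above whose call ended without control 1 were Snrpa1 (0.89), Snrpb2 (0.66), Snrpc (0.52), Snrpg (0.53), Lsm6 (0.55), Lsm12 (1.10), Prpf4 (0.68), Prpf6 (0.66), Prpf31 (0.88), Prpf38b (-0.67), Srsf1 (0.76), Srsf3 (0.61), Hnrnpc (0.33), Hnrnpd (0.51), Hnrnpk (0.53) and Hnrnpr (0.41). Without control 2 those of Hnrnpc (0.48), Hnrnpd (0.63), Hnrnpk (0.54), Hnrnpr (0.48), Prpf4 (0.84) and Prpf38b (-0.82) ended. Snrpb (1.19 ± 0.15), Snrpf, Lsm3 (0.97 ± 0.18), Lsm4 (1.11 ± 0.23), Prpf19 (1.13 ± 0.18), Sf3a3, Sf3b3, Hnrnpl, Hnrnph3 (-1.38 ± 0.20), Hnrnpul2 (-1.25 ± 0.19) and Lsm14b (-1.60 ± 0.22) were called with each control left out in turn. Tumour arrays did not overlap the controls in 36 higher and 9 lower members, against 27.4% and 33.2% of all genes. Centred on the median of all probe sets, 6 members were higher and 13 lower, where 1241 and 4127 of all 11588 genes were. After quantile normalization 20 members were higher and 12 lower, where 2219 and 2662 of all genes were. With arrays centred on the median of the genes tested 41 members were higher and 5 lower, where 3254 and 2139 of all genes were.

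Many members are read by more than 1 probe set, and these did not always move together. Of 184 member probe sets that passed the filter, 91 were higher and 20 lower against pre-transformed cells, where 25.1% and 27.9% of all probe sets were. Against controls 76 of the 184 were higher and 14 lower, where 21.2% and 22.3% of all probe sets were. Among the 48 members with at least 2 such probe sets, 7 (14.6%) had 1 called higher and another called lower, against 8.04% of all such genes. Against controls 5 (10.4%) did, against 5.21%. The number of probe sets per gene, which sets how many pairs can differ, was not matched between members and all genes. The 69 members tested were also sorted by their probe sets that passed the filter, a single probe set in members outside those 48. Every such probe set was called higher in 18 members and lower in 6. In 20 members some were higher and the rest not called, in 1 some were lower and the rest not called, and in 17 none was called. This split was not counted over all genes. Without pre-transformed 1, 2 or 3 the count of 7 went to 3, 3 and 4.

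Srsf3 had 6 probe sets. The brightest went from 2029.9 in pre-transformed cells to 3547 in tumours, another from 551 to 1669.6, while 1 called lower went from 251.5 to 169 (-0.57 ± 0.19). Sf3b1, not called in its brightest probe set, had 1 that went from 603 to 1367 (1.18 ± 0.20) and 1 that went from 134 to 88.3 (-0.61 ± 0.18). Prpf4b, a kinase of the tri-snRNP, had 1 higher by 1.66 ± 0.20 (133 to 422) and 2 lower, at -1.25 and -0.89. Such genes therefore have no single direction on this array. Hnrnpa1 (0.82 and -1.44), Hnrnpr (0.78, 2.30 and -1.29), Prpf39 (1.28 against -0.47 and -0.71) and Prpf6 (0.70 and 0.91 against -2.27 from 18.8 to 3.9) were the others. Both means of that lower Prpf6 probe set are dim, under the 65th percentile of every array (28.5 to 44.6). In 27 members the brightest probe set carries a suffix that marks sequence shared between transcripts or genes. Without such probe sets Srsf3 (-0.57) and Hnrnpr (-1.29) were called lower, and 25 members were higher and 10 lower against pre-transformed cells.

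**Figure D4:**
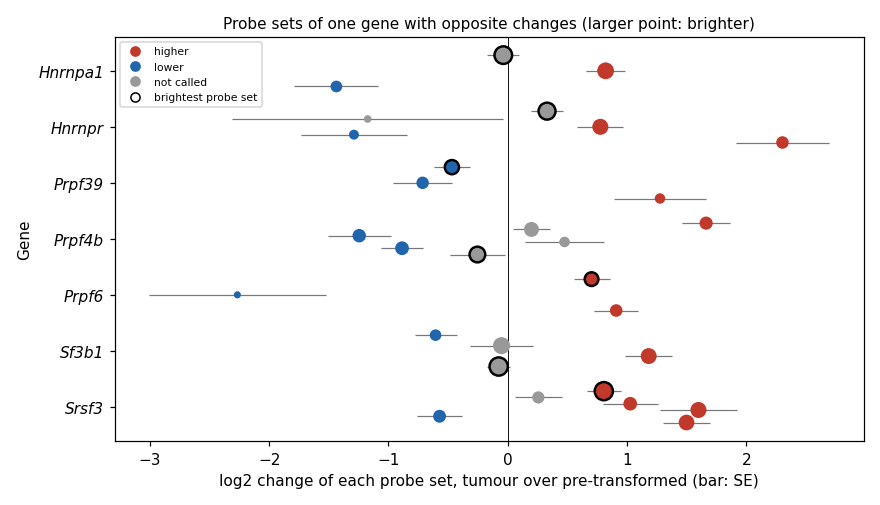
Log2 change in tumours against pre-transformed cells for every probe set (points, larger for brighter ones; bars are the SE) of the 7 splicing genes with probe sets called in opposite directions, the brightest of each gene being ringed. In Srsf3 most points lie right of 0 and 1 lies left at -0.57, and in Sf3b1 the ringed point lies at -0.08 between 1.18 and -0.61.

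The rest of the splicing pathway was followed through 7 lists of genes. Of all genes 23.8% were higher and 31.1% lower against pre-transformed cells, and 20.5% and 25.3% against controls. snRNP assembly, which builds Sm rings in the cytoplasm, was higher in tumours at 7 of 13 genes and lower at none against pre-transformed cells, with a median of 0.58. Prmt5, which methylates Sm proteins, went from 187 in pre-transformed cells to 986 in tumours (2.40 ± 0.21, adjusted p = 2.44e-05), with 173 in controls. Its partner Wdr77 went from 293 to 848 (1.53 ± 0.18) and Smn1, the core of the SMN complex, from 75.2 to 247 (1.71 ± 0.22). Against controls 6 were higher and none lower. With arrays centred on the median of all probe sets 4 were higher and 2 lower against pre-transformed cells.

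SR protein kinases and SR-related proteins were lower in tumours at 10 of 18 genes and higher at 3 against pre-transformed cells, and at 8 and 3 against controls. Srrm2, a scaffold of nuclear speckles, went from 2831 to 757 (-1.90 ± 0.13, adjusted p = 8.66e-06). Srpk2, which phosphorylates SR proteins in the cytoplasm, went from 572 to 80.4 (-2.83 ± 0.28). With the mean of its probe sets Srpk2 changed by -0.60 against pre-transformed cells and was not called against controls (-0.35). Clk4, which acts on SR proteins in the nucleus, went from 554 to 207 (-1.42 ± 0.16). The 3 rises were Rsrc1 (1.41, and 0.56, not called, with the mean of its probe sets), Tra2b (0.78), an enhancer-binding protein related to SR proteins, and Rnps1 (0.60). Tra2b was called lower, at -2.80, when only probe sets without the shared-sequence suffixes were used. Under quantile normalization and both centrings the list had 8 to 12 lower and 1 to 3 higher.

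Genes of the exon junction complex, left on spliced transcripts, and of nonsense-mediated decay were lower at 6 of 9 and higher at 1. Upf1, the helicase of that decay pathway, went from 305 to 77.7 (-1.97 ± 0.33, adjusted p = 7.08e-04) and its kinase Smg1 from 1077 to 426 (-1.34 ± 0.19), while Rbm8a (Y14 of the junction complex) rose from 990.5 to 2186 (1.14 ± 0.13). Minor spliceosome genes were 2 higher and 3 lower of 8 (25% and 37.5%), near the shares of all genes (23.8% and 31.1%). Among them Snrnp25 was at 1.52, Snrnp35 at 1.12 and Scnm1 at -0.48. No minor spliceosome gene was lower after quantile normalization, where 3 were higher.

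Other U1, U2 and branch site factors were 4 higher and 4 lower of 18 (22.2% each), against 23.8% and 31.1% of all genes. Phf5a, a small subunit of SF3B, went from 687.5 to 2063 (1.59 ± 0.17, adjusted p = 5.58e-05), while Snrnp70 went from 1297 to 591 (-1.14 ± 0.17) and Luc7l2, which also works with U1, from 1214 to 657 (-0.89 ± 0.17). Other tri-snRNP, Prp19 complex and catalytic factors were 13 higher and 6 lower of 30, and the 6 were Ddx23 (-2.14), Xab2 (-1.23), Dhx16 (-0.92), Syf2 (-0.66), Sart1 (-0.66) and Dhx38 (-0.59, which turned to 0.85 with the mean of its probe sets). With arrays centred on the median of all probe sets, 1 of these 30 was higher and 7 lower. Other splicing regulators were 13 higher and 5 lower of 31, and 7 higher and 10 lower after quantile normalization. Syncrip (hnRNP Q) went from 309.5 to 1040.4 (1.75 ± 0.14, adjusted p = 1.72e-05) and Elavl1 (HuR) from 422 to 1093 (1.37 ± 0.13), while Raly went from 798 to 157.5 (-2.34 ± 0.26). Tial1 (-1.23), Rbm5 (-1.44), Celf1 (-0.59) and Celf2 (-0.87) were lower too, though Tial1 and Celf1 turned to 0.23 and 0.10 with the mean of their probe sets. The call of Celf2 ended without tumour 1 (-0.75) or any 1 of the pre-transformed arrays.

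**Figure D5:**
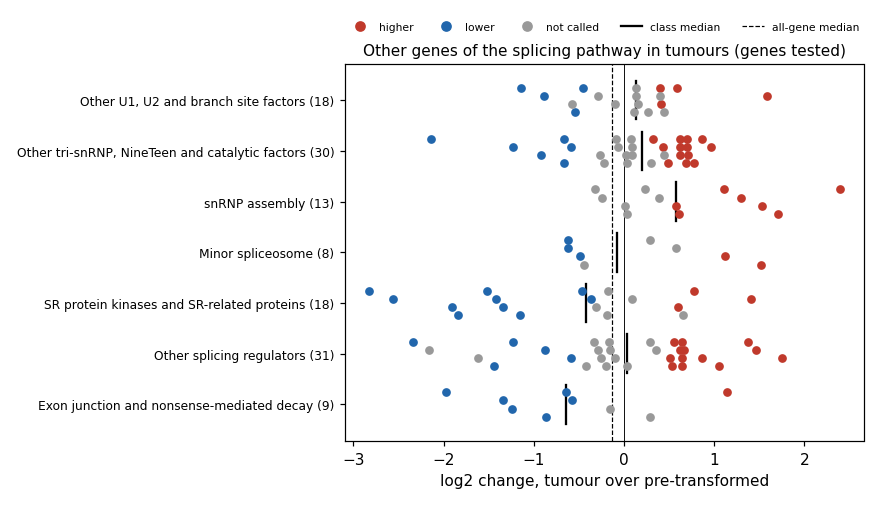
Log2 change in tumours against pre-transformed cells for the genes tested of 7 further lists of the splicing pathway (points), with each list's median (bar) and the median of all genes tested (dashed line, -0.13). Points of snRNP assembly called in the test all lie right of 0, up to 2.40 for Prmt5, and most called points of the SR protein kinase list lie left, down to -2.83 for Srpk2, which was at -0.60 with the mean of its probe sets.

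Between pre-transformed and control cells a single gene of these 7 lists was called, Esrp2, an epithelial splicing regulator that was named after its values were seen. It went from 86.6 (SD 0.15 on the log2 scale, n = 2) in controls to 619 (SD 0.37, n = 3) in pre-transformed cells (2.84 ± 0.20, adjusted p = 0.00146). In tumours its mean was 201 with a log2 SD of 2.41 (n = 4), and it was called in neither tumour comparison.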

How the data were processed

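The 9 one-colour arrays came as a single deposited table of signal intensity, linear, for 45101 probe sets. The software was MAS5 per the submitters' processing notes, with no version stated there. By the values themselves, arrays share a mean of 100 once the lowest and highest 2% are trimmed. Of the probe sets, 64 were controls (left out), 34945 named 1 gene, 932 several (17 with a member symbol, not used) and 9160 none in the platform table. Signals were taken to log2 without further normalization, after 218 values of 0 were set to 0.1.

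Linear models used limma 3.58.1 under R 4.3.3 (lmFit; eBayes, trended), and p-values were adjusted by Benjamini-Hochberg over 11588 genes, with calls at an adjusted p under 0.05. The sorted groups were compared in a fit of their 5 arrays and the tumours in a fit of all 9. P-values measure the spread between single mice, and precision is limited by how few arrays each group has. A replicate number belongs to a different mouse in every group and pairs nothing. The members, lists and rules were chosen with earlier results of these data known. Named genes were, by class and comparison, up to 3 called rises and 3 called falls whose arrays did not overlap, the 5 smallest p between the sorted groups, a fixed set of well-known members, members with opposite probe sets, members not tested and, for each other list, the 3 smallest p in tumours against pre-transformed cells with any gene called against most of its list; a few more are named for completeness. Tests were tried on 10 simulated data sets per comparison with 200 of 11588 genes changed, fewer than were called in tumours. Log2 changes of 1 and 2 were recovered at 34% and 74.3% against pre-transformed cells and at 24.5% and 64.4% against controls. Between the sorted groups these shares were 64.1% and 85.8%. False calls made up 4.64% to 5.87% of the calls. The changed genes were drawn from all genes tested, so the shares recovered are not those of the members. With so few changed genes the adjustment is also stricter than in the tumour comparisons. A gene not called may still have changed. Alternatives covered the filter on dim probe sets, normalization, an offset of 16, the choice of probe set, the variance model, the arrays in the fit, the replicate block and each array left out. Tumour 2 as the only tumour and centring on the median of tested genes were added after seeing the data. Plots were made in Python 3.11.15 with matplotlib 3.10.9. Srsf7, Snrpa, Snrpd1, Snrpd2, Lsm5 and Hnrnpa3 were not analysed here.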

Additional observations from a re-analysis of the deposited data

Results flagged for a closer look

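Of 78 named genes, 2 had 1 tumour array that stood apart from the other 3 by Dixon's criterion, which flags about 1 in 20 groups by chance. For Prpf19 it was tumour 4, the lowest at 2147, the next tumour being at 3231. For Rnps1, a splicing activator that joins the exon junction complex, it was tumour 1, the highest at 2899, the next being at 2353.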

How the results depend on the processing

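Counts are given as higher and lower members. Against pre-transformed cells (35 and 7, median 0.41), quantile normalization gave 18 lower and a median of 0.21. Centring on the median of all probe sets gave 11 lower and 0.15. The median was 0.20 for probe sets without shared-sequence suffixes and 0.42 with tumour 2 alone. Centring on the median of tested genes gave 40 higher, 5 lower and 0.70, where 3606 and 2693 of all 11588 genes were. Against controls (28 and 6, median 0.37), quantile normalization gave 12 lower and 0.20. Centring on the median of all probe sets gave 6 higher, 13 lower and -0.015, where 1241 and 4127 of all 11588 genes were higher and lower. Probe sets without suffixes gave 17 higher and 0.24. The median was 0.40 with tumour 2 alone. Centring on the median of tested genes gave 41 higher, 5 lower and 0.66, where 3254 and 2139 of all 11588 genes were. For pre-transformed against control (0 and 0, median -0.08), quantile normalization gave 1 higher (Hnrnpdl), probe sets without suffixes 1 lower (Hnrnpc) and centring on the median of all probe sets a median of -0.21. The cause of these shifts was not tested, except that fewer members (62 of 69) were tested without suffixes. With each array left out in turn, members higher ranged from 31 to 36 and lower from 6 to 9 against pre-transformed cells, from 12 to 32 and from 5 to 9 against controls, and were 0 higher and 0 to 2 lower between the sorted groups, the 2 arising without pre-transformed 2. The 12 against controls arose without control 1, where 1176 of all 11588 genes were higher in place of 2372. The number of members with opposite probe sets was 3 without pre-transformed 1 or 2 and 4 without pre-transformed 3, in place of 7. With the replicate number as a block the counts were 0 and 0, 34 and 7, and 32 and 6, and same-numbered arrays did not deviate together (correlations -0.02 to 0.09).

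Single genes changed direction as follows. Hnrnpc turned to -0.095 against pre-transformed cells and -0.028 against controls under quantile normalization. With the mean of probe sets, against pre-transformed cells, Hnrnpdl turned to 0.46, Prpf39 to 0.031, Prpf6 to -0.22, Tial1 to 0.23, Celf1 to 0.10, Dhx38 to 0.85 and Tra2b to -0.85. Against controls Prpf6 turned to -0.29, Tial1 to 0.055 and Tra2b to -0.86. Without suffixes, against pre-transformed cells, Hnrnpr turned to -1.29, Srsf3 to -0.57, Tial1 to 0.21, Dhx38 to 2.30 and Tra2b to -2.80. Against controls Hnrnpd turned to -0.088, Hnrnpr to -0.79, Srsf3 to -0.60, Tial1 to 0.029 and Tra2b to -2.57. Of all values for named genes under alternatives, 1549 of 1631 against pre-transformed cells, 1478 of 1631 against controls and 1237 of 1241 between the sorted groups kept the call, or the lack of one, and where called the direction. Values never called could change sign. The 4 tumours, 3 pre-transformed and 2 control arrays limit what small changes can show, and dim probe sets are close to background.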
